A study of Homo sapiens with 15 samples.

Results

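Gene expression was compared between C42B cells exposed for 6 h to enzalutamide together with PF-543 and C42B cells given the vehicle dimethyl sulfoxide (DMSO). The 2 groups were chosen by the treatment in their labels: 3 arrays of the combination (10 µM enzalutamide with 15 µM PF-543) and 3 arrays of vehicle (0.125% DMSO), 6 of the 15 arrays in the series. They were compared across 17687 genes, each read by the probe set with the highest mean among those carrying its symbol. C42B is an established human prostate cancer line, derived from LNCaP, that grows in castrated hosts. Arrays of enzalutamide alone (10 µM, 2 arrays) and PF-543 alone (15 µM, 3 arrays) are given beside the combination. The 3 arrays of enzalutamide with ABC294640 (10 and 15 µM) and the single array of ABC294640 (15 µM) entered the fit for its estimate of the spread. All groups were this 1 line grown in medium with 10% serum, and the DMSO content of the drug-treated wells is not given in the labels. Whether replicates came from separate cultures is not stated in the labels, and p-values thus measure only array-to-array spread, which may be technical, with a precision limited by the small number of arrays.

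Enzalutamide blocks androgen signalling, the hormone pathway that keeps luminal prostate cells and most prostate cancers transcribing secretory genes such as the kallikreins. PF-543 inhibits sphingosine kinase 1 (SPHK1), which phosphorylates sphingosine to the signalling lipid sphingosine 1-phosphate. One stress pathway recurs below. In the integrated stress response (ISR), kinases that sense amino acid shortage, misfolded protein or other stress slow general translation while ATF4 is translated more, and ATF4 then switches on genes for amino acid supply, redox balance and, with DDIT3 (CHOP), growth arrest or death. Sterol and fatty acid enzymes are controlled by the SREBP factors, which INSIG1 holds in the endoplasmic reticulum (ER) while sterols are plentiful.

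All values are log2 expression from robust multi-array averaging (RMA), so a difference of 1 is a 2-fold change. Every array had a median over probe sets between 6.71 and 6.76. The 3 DMSO arrays stood apart from all drug-treated arrays: on the first principal component, with 15.3% of the variance, the combination arrays lay between -11.62 and -7.63, the other treated arrays between -7.65 and 0.03, and the DMSO arrays between 18.87 and 24.80. Pairwise correlations over genes were 0.996357 to 0.996615 within the combination, 0.995689 to 0.995889 within DMSO and 0.994177 to 0.995045 between them. The main differences from DMSO are therefore accompanied by the sum of the combination's differences from each single agent, which holds no DMSO array and equals the difference from DMSO when effects add on the log2 scale (the DMSO-free sum). Among the 66 named genes called against DMSO this sum was smaller by over 1.5 times in 21, of which 3 turned sign, and each of the 21 has its sum beside it. The part of the DMSO arrays' shift in a result was not tested. Of the luminal prostate markers, 8 were measured, with group means from 9.25 (TMPRSS2) to 15.7 (KLK3) in the combination and from 9.99 (TMPRSS2) to 16.2 (KLK3) in DMSO. The 14 measured markers of basal, neuroendocrine, fibroblast, immune and endothelial cells lay between 3.59 and 6.71 in the combination and between 3.73 and 6.79 in DMSO, apart from the collagen gene COL1A2 at 9.05 and 9.47. Their summed level was 74.91 to 77.28 on the combination arrays and 76.58 to 79.27 on the DMSO arrays. Of the 14, 0 passed the test and 2 had an unadjusted p under 0.05 in limma, as had 3314 of all 17687 genes.

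In cells given the combination, 198 genes were higher and 160 lower than in DMSO at an adjusted p under 0.05 (limma moderated test, Benjamini-Hochberg over all genes), which is 1.12% and 0.905% of the genes tested. DDIT4, a brake on the growth kinase complex mTORC1, had the largest rise, at 5.13-fold, followed by CHAC1, which degrades glutathione, at 3.93-fold. Among the falls ZBTB16, RHOU and C1orf116, all induced by androgen in prostate cells, were the largest, at 4.22-fold, 4.21-fold and 4.13-fold. At least 2-fold changes were few, with 14 of the called rises and 20 of the called falls. The risen genes were expressed at a median log2 level of 10.11, the fallen genes at 8.26, and all genes at 7.06. Below 4.65, the first quartile of all genes, lay 3 of the risen genes (1.52%) and 30 of the fallen genes (18.8%).

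None of the 358 called genes had overlapping groups, and over all genes 12.1% had all 3 combination arrays above all 3 DMSO arrays and 11.6% all below. The number of calls rested on the pooled spread and on each array: with 1 of the 6 arrays left out it was 201, 139 and 260 without DMSO arrays 1, 2 and 3, and 130, 115 and 131 without combination arrays 1, 2 and 3. Of the 358, 75 passed the threshold under all 6 omissions, 40 of them higher and 35 lower. A fit on the 6 arrays alone called 31 genes, 16 higher and 15 lower. In that fit 41 of the 66 named genes called in the main fit lost the threshold.

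**Figure D1:**
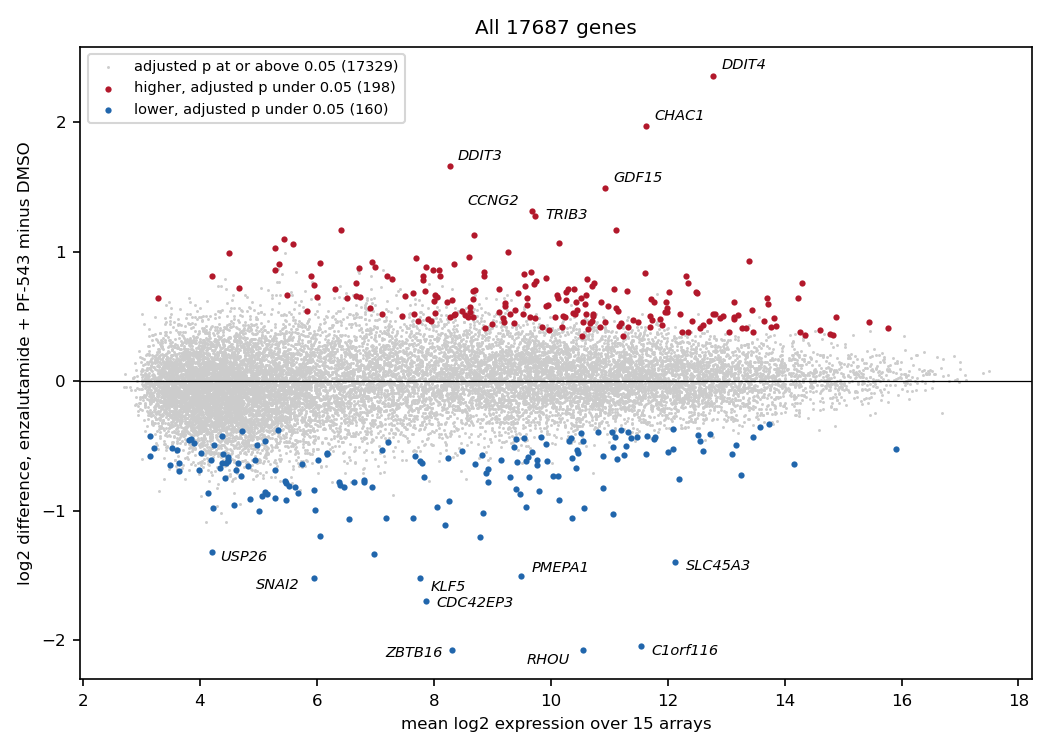
Log2 difference of the combination (enzalutamide + PF-543) minus DMSO for 17687 genes against mean log2 expression over the 15 arrays. Red points are the 198 genes higher and blue points the 160 genes lower at an adjusted p under 0.05, grey points are the rest, and DDIT4 stands highest at 2.36 while ZBTB16, RHOU and C1orf116 lie lowest, near -2.

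The rises were led by genes of the ISR. Over 5 related lists of ISR regulators, ISR targets, amino acid synthesis, amino acid transport and tRNA synthetases, 19 of 84 measured genes rose (22.6%, against 1.12% of all genes) and 1 fell (1.19%, against 0.905%), with a median log2 difference of 0.14 against -0.01 over all genes. Most of these calls came from the first 2 lists. Of the ISR regulators 7 of 17 rose and 0 fell, with a median of 0.29, and of the ISR targets 9 of 25 rose and 1 fell, with a median of 0.35. The median DMSO-free sums of these 2 lists were 0.29 and 0.41. NUPR1 and GDF15 stand in both. Leaving out combination array 2 lowered these counts to 4 and 5 rises.

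DDIT4 was at 13.93, 14.11 and 14.09 on the combination arrays, against 11.94, 11.68 and 11.43 on the DMSO arrays, a log2 difference of 2.36 ± 0.13 (SE, adjusted p = 7.89e-07). The groups were wide apart, and the enzalutamide arrays (12.86 and 12.89) and PF-543 arrays (12.87, 12.60 and 12.85) lay between them. Its difference from enzalutamide alone was 1.17 (adjusted p = 0.0118) and from PF-543 alone 1.27 (adjusted p = 3.63e-04). CHAC1 was at 12.48, 12.72 and 12.60 with the combination, against 10.54, 10.63 and 10.71 in DMSO, which is 1.97 ± 0.11 higher (adjusted p = 7.89e-07). Here too both single agents were intermediate, at 11.94 and 11.69 with enzalutamide and 11.31, 11.22 and 11.42 with PF-543. The excess of the combination over PF-543 alone was 1.28 (adjusted p = 7.73e-05) and that over enzalutamide alone 0.79 (adjusted p = 0.055).

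DDIT3, the stress factor also called CHOP, was at 9.04, 9.53 and 9.31 with the combination, against 7.80, 7.74 and 7.36 in DMSO, a 3.16-fold rise (1.66 ± 0.19, adjusted p = 0.00114). Unlike DDIT4 and CHAC1, it had PF-543 arrays (7.73, 7.33 and 7.90) that overlapped those of DMSO, while the enzalutamide arrays read 8.56 and 8.36. GDF15, a secreted stress cytokine, was at 11.78, 11.86 and 11.73 in treated cells, against 10.61, 10.23 and 10.05 in vehicle (1.49 ± 0.17, adjusted p = 0.00102). TRIB3, a pseudokinase that restrains ATF4 and AKT, was at 10.44, 10.35 and 10.49, against 8.96, 9.24 and 9.26 (1.27 ± 0.15, adjusted p = 0.00138). SESN2, a leucine sensor that restrains mTORC1, was at 9.06, 9.38 and 9.02, against 7.88, 7.96 and 8.22 (1.13 ± 0.15, adjusted p = 0.00281). As in every called gene, the combination and DMSO arrays did not overlap in these 4 genes. The DMSO-free sums were 1.68 for GDF15, 1.56 for TRIB3 and 0.86 for SESN2, whose difference from enzalutamide alone was 0.19 (adjusted p = 0.833).

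Smaller rises included the transcription factors JDP2 (0.96 ± 0.19, adjusted p = 0.0244), ATF3 (0.82 ± 0.13, adjusted p = 0.00846) and ATF4 itself (0.38 ± 0.08, adjusted p = 0.0335). ATF3 was the one ISR regulator to differ from enzalutamide alone, by 1.05 (adjusted p = 0.0305). The secreted calcium regulator STC2 rose by 0.76, the cystine transporter SLC7A11 by 0.71, the stress protein NUPR1 by 0.64 and SESN3, a relative of SESN2, by 0.85. TXNIP, which binds thioredoxin and limits glucose uptake, was the 1 target that fell, by 0.91 (adjusted p = 0.0169), with a DMSO-free sum of -0.43. FGF21, a hormone induced by ATF4, did not pass (0.61 ± 0.17, adjusted p = 0.0832). With each of the 6 arrays left out in turn, DDIT4, CHAC1, DDIT3, GDF15, TRIB3, SESN2, ATF3 and STC2 stayed under 0.05. NUPR1 and SLC7A11 lost the threshold without combination array 2 (adjusted p = 0.0595 and 0.0646) and TXNIP without DMSO array 2 (0.0638). SESN3, JDP2 and ATF4 each kept it in 1 of the 6 fits, and HERPUD1, which rose by 0.44, in 0. HERPUD1 counts among the risen ISR genes and also in the ER folding list below.

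The supply side of the same response moved in few of its members. Each list count in this paragraph stands beside 1.12% of all genes that rose. In amino acid synthesis 2 of 17 genes rose: PSPH, the last enzyme of serine synthesis (0.85 ± 0.10, adjusted p = 0.00114), and ASNS, asparagine synthetase (0.60 ± 0.08, adjusted p = 0.0035). ASNS was at 14.12, 14.06 and 14.02 with the combination, against 13.44, 13.43 and 13.53 in DMSO, and it exceeded PF-543 alone by 0.49 (adjusted p = 0.0273). In amino acid transport 2 of 16 rose, SLC7A11 and the glycine transporter SLC6A9, which was at 10.62, 10.63 and 10.64 against 9.60, 9.65 and 9.44 (1.07 ± 0.10, adjusted p = 3.24e-04). Of 16 tRNA synthetases 2 rose, SARS1 for serine (0.61) and NARS1 for asparagine (0.49), where NARS1 held the threshold in 2 of 6 fits with an array left out and had a DMSO-free sum of 0.16. The medians of these 3 lists were 0.07, 0.17 and 0.12, but their median DMSO-free sums were 0.018, -0.015 and 0.10. The sums for PSPH, ASNS and SLC6A9 were 0.65, 0.75 and 0.85. In the ER folding list 3 of 23 rose, with a median of 0.06: the unfolded protein response factor XBP1 (0.52), EDEM1 (0.49) and HERPUD1 (0.44), both of which serve the removal of misfolded ER proteins. EDEM1 and HERPUD1 lost the threshold in 5 and 6 of the 6 fits with an array left out, and the DMSO-free sum was -0.053 for EDEM1 and -0.005 for the list's median. Of 16 brakes on mTORC1, DDIT4, SESN2 and SESN3 rose, with a list median of 0.02.

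ATF4 binds, with C/EBP partners, a composite C/EBP-ATF element (CARE). The letters TGATGNAA were searched on both strands of the RefSeq promoter windows (GRCh38.p14, 300 bases, from 250 before a gene's start to 50 after it, every listed start of a gene). Of the 19 ISR genes that rose, 16 had a window, and 6 of these 16 (37.5%) held the letters: CHAC1, ASNS, ATF3, HERPUD1, JDP2 and NARS1. Of all measured members of the 5 lists, risen or not, 20 of 67 with a window held them (29.9%), and of all 27305 genes with a window 4.46%. Shown here are promoters of a glutathione enzyme, an amino acid enzyme and an ER protein that all rose, and the match is in capitals.
CHAC1: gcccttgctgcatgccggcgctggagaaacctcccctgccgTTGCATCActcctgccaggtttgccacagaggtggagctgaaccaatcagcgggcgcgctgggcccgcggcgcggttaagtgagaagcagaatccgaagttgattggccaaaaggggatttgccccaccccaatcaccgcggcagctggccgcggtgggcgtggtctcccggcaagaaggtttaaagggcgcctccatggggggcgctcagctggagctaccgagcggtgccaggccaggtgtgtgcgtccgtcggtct
ASNS: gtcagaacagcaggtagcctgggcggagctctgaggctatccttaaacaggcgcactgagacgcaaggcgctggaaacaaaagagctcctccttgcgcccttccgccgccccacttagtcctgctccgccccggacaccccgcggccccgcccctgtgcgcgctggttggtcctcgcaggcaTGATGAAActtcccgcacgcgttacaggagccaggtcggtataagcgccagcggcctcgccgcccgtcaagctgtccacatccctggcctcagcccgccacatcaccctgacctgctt
HERPUD1: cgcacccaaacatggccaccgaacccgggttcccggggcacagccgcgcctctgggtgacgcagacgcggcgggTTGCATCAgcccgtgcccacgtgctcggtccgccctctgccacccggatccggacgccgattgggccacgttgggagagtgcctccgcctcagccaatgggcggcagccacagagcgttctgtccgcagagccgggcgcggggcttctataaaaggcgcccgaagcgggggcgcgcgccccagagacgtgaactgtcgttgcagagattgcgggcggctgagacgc
The CHAC1 window is chr15:40953221-40953520 on the plus strand, the ASNS window chr7:97872359-97872658 on the minus strand and the HERPUD1 window chr16:56931892-56932191 on the plus strand, each written 5′ to 3′ along its gene. The match begins 209 bases before the start in CHAC1, 68 before it in ASNS and 176 before it in HERPUD1, and lies on the opposite strand in CHAC1 and HERPUD1. A match describes the letters in the window and does not show that a factor binds there.

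**Figure D2:**
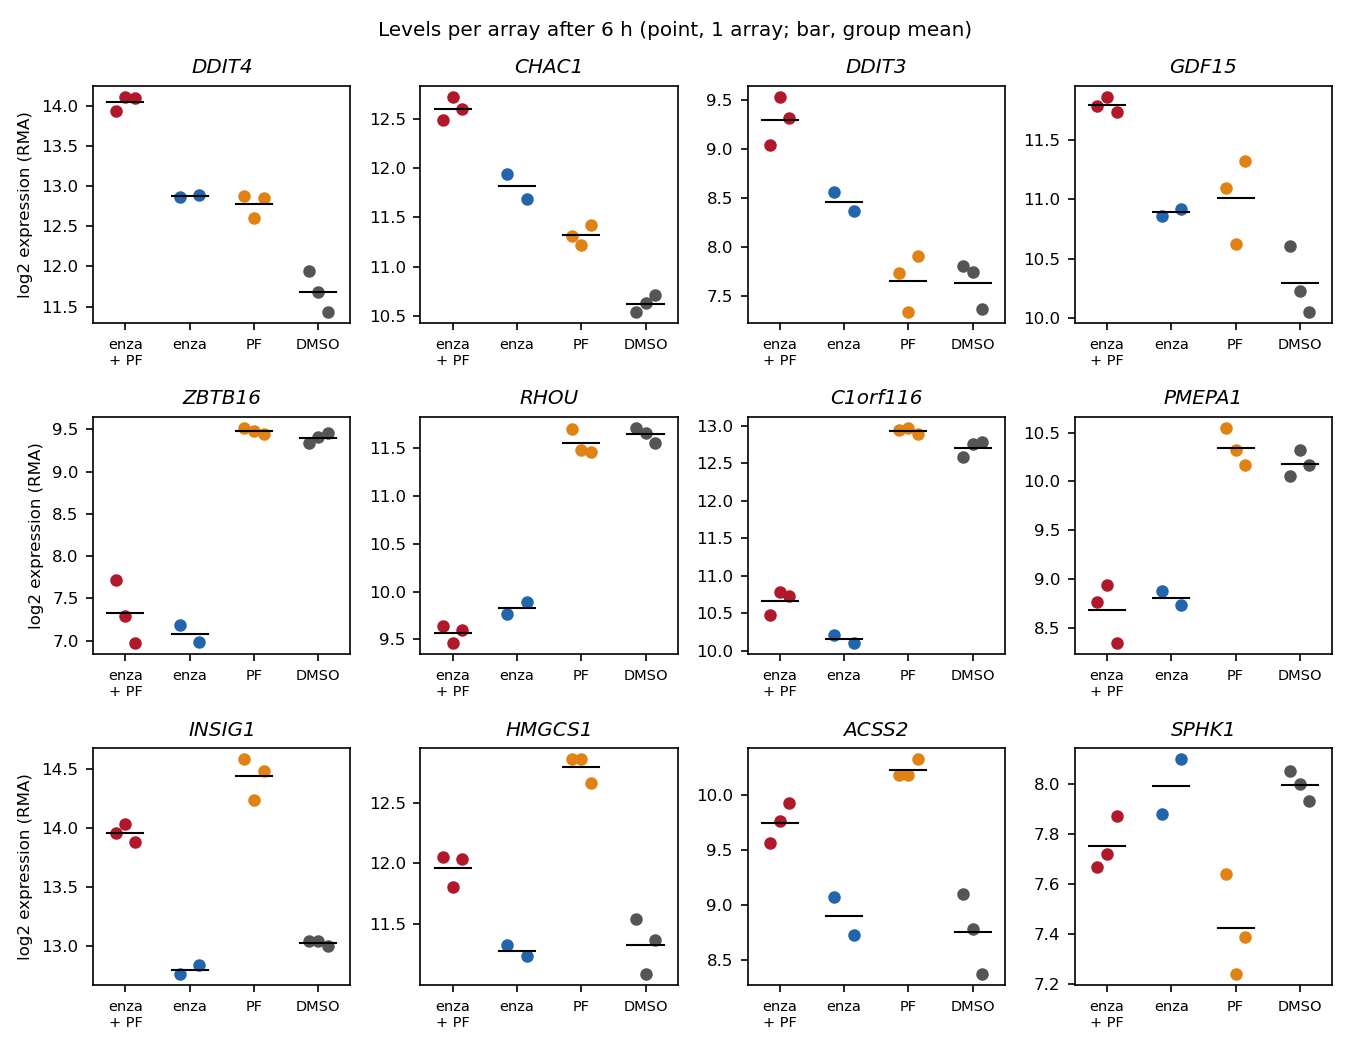
Log2 expression (RMA) per array for 12 genes, with enzalutamide + PF-543 (red), enzalutamide alone (blue), PF-543 alone (orange) and DMSO (grey) from left to right, on an axis of its own for each gene. Each point is 1 array and each bar a group mean: the stress genes of the top row are highest in the combination, the androgen-induced genes of the middle row are low in both groups with enzalutamide, and INSIG1, HMGCS1 and ACSS2 are highest with PF-543 alone.

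The falls were led by genes that androgen induces. Of 38 measured genes of the androgen-induced list 13 fell (against 0.905% of all genes) and 0 rose, with a median log2 difference of -0.36 against -0.01 over all genes. ZBTB16, a zinc finger repressor, was at 7.72, 7.29 and 6.97 with the combination, against 9.34, 9.41 and 9.46 in DMSO, and fell by 2.08 ± 0.16 (adjusted p = 2.31e-05). RHOU was at 9.64, 9.46 and 9.60, against 11.71, 11.66 and 11.55, and fell by 2.07 ± 0.12 (adjusted p = 1.54e-06). C1orf116 was at 10.47, 10.78 and 10.73, against 12.58, 12.76 and 12.78, and fell by 2.05 ± 0.11 (adjusted p = 7.89e-07). In each of these 3 genes the groups lay far apart. The PF-543 arrays overlapped those of DMSO for ZBTB16 and RHOU and lay above them for C1orf116 (12.94, 12.97 and 12.89).

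PMEPA1, which dampens TGF-beta signalling, was at 8.76, 8.94 and 8.34 with the combination, against 10.06, 10.32 and 10.17 in DMSO (-1.50 ± 0.15, adjusted p = 4.51e-04). SLC45A3 (prostein), a prostate-restricted transporter, was at 11.38, 11.44 and 11.44, against 12.77, 12.90 and 12.77 (-1.39 ± 0.09, adjusted p = 7.32e-06). The kallikreins, secreted proteases used as prostate markers, changed less: KLK3, which encodes prostate-specific antigen, was at 15.69, 15.74 and 15.64, against 16.18, 16.22 and 16.23 (-0.52 ± 0.08, adjusted p = 0.00699). Both groups were tight for KLK3 and did not overlap. KLK2 fell by 0.56 (adjusted p = 0.0296), and the serine protease TMPRSS2, whose promoter drives the common ERG fusion of prostate cancer, by 0.74 (adjusted p = 0.00197). The other falls were CROT, a peroxisomal acyltransferase (-0.98), the kinase MAK (-0.76), OTULINL (-0.73), the elongation factor ELL2 (-0.64) and the protease ADAMTS1 (-0.54). NDRG1, at -0.71, did not pass (adjusted p = 0.0572), and neither did KLK4, at -0.13.

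For the androgen-induced list the median was -0.38 for enzalutamide alone and 0.08 for PF-543 alone, both against the same DMSO arrays. Without a DMSO array, the median difference was 0.10 from enzalutamide alone and -0.31 from PF-543 alone, and the median DMSO-free sum was -0.22. ZBTB16 differed from PF-543 alone by -2.16 (adjusted p = 2.20e-05) and from enzalutamide alone by 0.24 (adjusted p = 0.79), and C1orf116 by -2.27 (adjusted p = 3.78e-07) and 0.51 (adjusted p = 0.286). RHOU, PMEPA1, SLC45A3, CROT, TMPRSS2, OTULINL, ELL2 and KLK2 were also lower than with PF-543 alone at an adjusted p under 0.05, whereas ADAMTS1 (-0.32, adjusted p = 0.315) and KLK3 (-0.34, adjusted p = 0.15) did not pass. With each array left out in turn the list had 9 to 13 falls, the lowest without combination array 1. KLK2 lost the threshold in all 6 of these fits, MAK in 5, OTULINL in 4 and ADAMTS1 in 2. Of 17 genes that androgen represses none passed, with a median of 0.00. At an unadjusted p under 0.05 in limma were 4 of them, against 3314 of all 17687 genes. HOXB13, a homeobox partner of androgen signalling, rose by 0.51 (adjusted p = 0.0172), against 0.75 with enzalutamide alone and a DMSO-free sum of 0.11, and did not pass without combination array 1 or 3 (highest adjusted p = 0.064).

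Several of the largest falls lie outside that list. CDC42EP3, which binds the GTPase CDC42, was at 7.26, 7.10 and 6.95 with the combination, against 8.84, 9.05 and 8.50 in DMSO (-1.69 ± 0.18, adjusted p = 5.13e-04). KLF5, a zinc finger factor of epithelial growth, was at 7.24, 6.85 and 7.21, against 8.80, 8.52 and 8.54 (-1.52 ± 0.17). SNAI2, a repressor of epithelial genes, was at 5.31, 4.99 and 4.86, against 6.29, 6.74 and 6.69 (-1.52 ± 0.30, adjusted p = 0.0263). All 3 were low with enzalutamide alone as well, and SNAI2 was at 7.76, 7.75 and 7.01 with PF-543 alone, above every DMSO array.

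CCDC141 (-1.33), FAM110B (-1.11) and the notch-induced repressor HEY1 (-1.06) also fell and kept the threshold with each array left out. THBS1, the matrix protein thrombospondin, was at 8.77, 7.48 and 7.79 with the combination, against 9.24, 9.04 and 9.37 in DMSO (-1.20 ± 0.27, adjusted p = 0.0389). Its first combination array lay closest to DMSO, without overlap. MAF, a leucine zipper factor, was at 7.11, 6.87 and 6.99, against 8.18, 7.78 and 8.18 (-1.06 ± 0.20, adjusted p = 0.0195), and TNFRSF10D, a decoy receptor for the death ligand TRAIL, had the same log2 difference of -1.06 (adjusted p = 0.00846). THBS1 and SNAI2 kept the threshold in 1 and MAF in 2 of the 6 fits with an array left out. For USP26, a deubiquitinase known from testis, and ITGA2B, an integrin known from platelets, the DMSO arrays stood above all others: USP26 was at 4.06, 4.21 and 3.74 with the combination, against 4.75, 5.71 and 5.51 in DMSO (-1.32), with an adjusted p of 0.0119 that became 0.0506 without combination array 3. USP26 read 4.28 and 4.35 with enzalutamide and 4.18, 4.26 and 3.76 with PF-543, so both enzalutamide arrays lay just above the overlapping combination and PF-543 arrays, and its DMSO-free sum was -0.38. USP26 averaged 4.21 over the 15 arrays, below the first quartile of all genes (4.65), and probe sets carry no detection call. ITGA2B differed by -1.19 from DMSO, with a DMSO-free sum of -0.58.

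Lipid synthesis genes rose in part. Over the lists of sterol synthesis, sterol control and uptake, and fatty acid synthesis, 11 of 48 measured genes rose (22.9%, against 1.12% of all genes) and 0 fell, with a median log2 difference of 0.15 (0.30 for PF-543 alone and -0.05 for enzalutamide alone, all against the same DMSO arrays). The median DMSO-free sum was lower, at 0.072. INSIG1, which retains the SREBP factors in the ER, was at 13.96, 14.04 and 13.88 with the combination, against 13.04, 13.04 and 13.00 in DMSO, and rose by 0.93 ± 0.12 (adjusted p = 0.00168). With PF-543 alone it was at 14.59, 14.24 and 14.49, and with enzalutamide alone at 12.76 and 12.84. The combination thus lay between the single agents, 1.16 above enzalutamide (adjusted p = 0.00656) and 0.48 below PF-543 (adjusted p = 0.166).

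In sterol synthesis 4 of 17 genes rose, with a list median of 0.20 and a median DMSO-free sum of 0.12. MSMO1, a sterol demethylase, was at 14.76, 14.91 and 14.87 with the combination, against 14.10, 14.09 and 14.07 in DMSO (0.76 ± 0.09, adjusted p = 0.00138), and exceeded enzalutamide alone by 1.11 (adjusted p = 0.0016). HMGCS1, which makes HMG-CoA at the head of the pathway, was at 12.05, 11.81 and 12.04, against 11.54, 11.09 and 11.37 (0.63 ± 0.13, adjusted p = 0.0265). It was at 12.86, 12.86 and 12.66 with PF-543 alone, higher than in the combination, whose difference from PF-543 alone was -0.83 (adjusted p = 0.0143), and its DMSO-free sum was -0.15. IDI1, an isomerase of isoprenoid units, rose by 0.55 and differed from enzalutamide alone by 0.80 (adjusted p = 0.0413). DHCR7, the last step to cholesterol, rose by 0.50, and SQLE, squalene epoxidase, did not pass at 0.46 (adjusted p = 0.059). The DMSO-free sum was 0.77 for MSMO1 but 0.29 for both IDI1 and DHCR7. MSMO1 and DHCR7 kept the threshold with each array left out, HMGCS1 in 2 of 6 fits and IDI1 in 1, and the count of risen members was 2 without DMSO array 2, combination array 1 or combination array 3.

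In fatty acid synthesis 6 of 19 genes rose, with a median of 0.16 and a median DMSO-free sum of 0.052. ACSS2, the enzyme that turns acetate into acetyl-CoA, was at 9.56, 9.76 and 9.93 with the combination, against 9.10, 8.78 and 8.37 in DMSO (1.0 ± 0.17, adjusted p = 0.0147), and at 10.18, 10.18 and 10.33 with PF-543 alone. ELOVL6, an elongase, rose by 0.71, ACSL1, an acyl-CoA synthetase, by 0.69, the desaturases SCD5 and SCD by 0.65 and 0.46, and FASN, fatty acid synthase, by 0.64 (adjusted p = 0.00814). The DMSO-free sums of ACSS2 and ACSL1 were 0.37 and 0.33, and their differences from PF-543 alone were -0.48 (adjusted p = 0.464) and -0.27 (adjusted p = 0.422). Without combination array 2 the list had 3 rises. ELOVL6, ACSL1 and FASN kept the threshold with each array left out, whereas ACSS2 lost it without combination array 2 or 3 (highest adjusted p = 0.0562), and SCD5 and SCD kept it in 2 and 3 of the 6 fits. Of 20 phospholipid genes 2 rose (against 1.12% of all genes), PCYT2 of phosphatidylethanolamine synthesis (0.83) and the secreted lipase LIPG (1.06). The list had a median of 0.11 and a median DMSO-free sum of 0.04. The DMSO-free sum was 0.088 for PCYT2 and 0.55 for LIPG, and the combination differed from PF-543 alone by -0.16 and -0.043. The sterol regulatory letters TCACNCCAC were found in 1 of the 10 risen lipid genes with a promoter window, ACSL1. They were in 2 of 43 measured lipid genes with a window, risen or not (4.65%), and in 1.39% of all genes with a window.

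The transcript of SPHK1, target of PF-543, was at 7.67, 7.72 and 7.87 with the combination, against 8.05, 8.0 and 7.93 in DMSO. The combination arrays lay just below, without overlap, but the difference of -0.24 ± 0.12 did not pass (adjusted p = 0.317). With PF-543 alone SPHK1 was at 7.64, 7.24 and 7.39 and with enzalutamide alone at 7.88 and 8.10. The combination differed from PF-543 alone by 0.33 (adjusted p = 0.476), and the DMSO-free sum was 0.093 (adjusted p = 0.955). An inhibitor of the enzyme need not alter its mRNA, and these arrays do not measure sphingolipids. Of 37 sphingolipid genes, among them ceramide synthases, ceramidases, sphingomyelinases and receptors for sphingosine 1-phosphate, none passed in limma, with a median of 0.02. An unadjusted p under 0.05 was seen in 6 of them, against 3314 of all 17687 genes. UGCG, which makes glucosylceramide, had the largest value at 0.56 (adjusted p = 0.121), followed by the sphingomyelin synthase SGMS2 at 0.48 (adjusted p = 0.208).

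**Figure D3:**
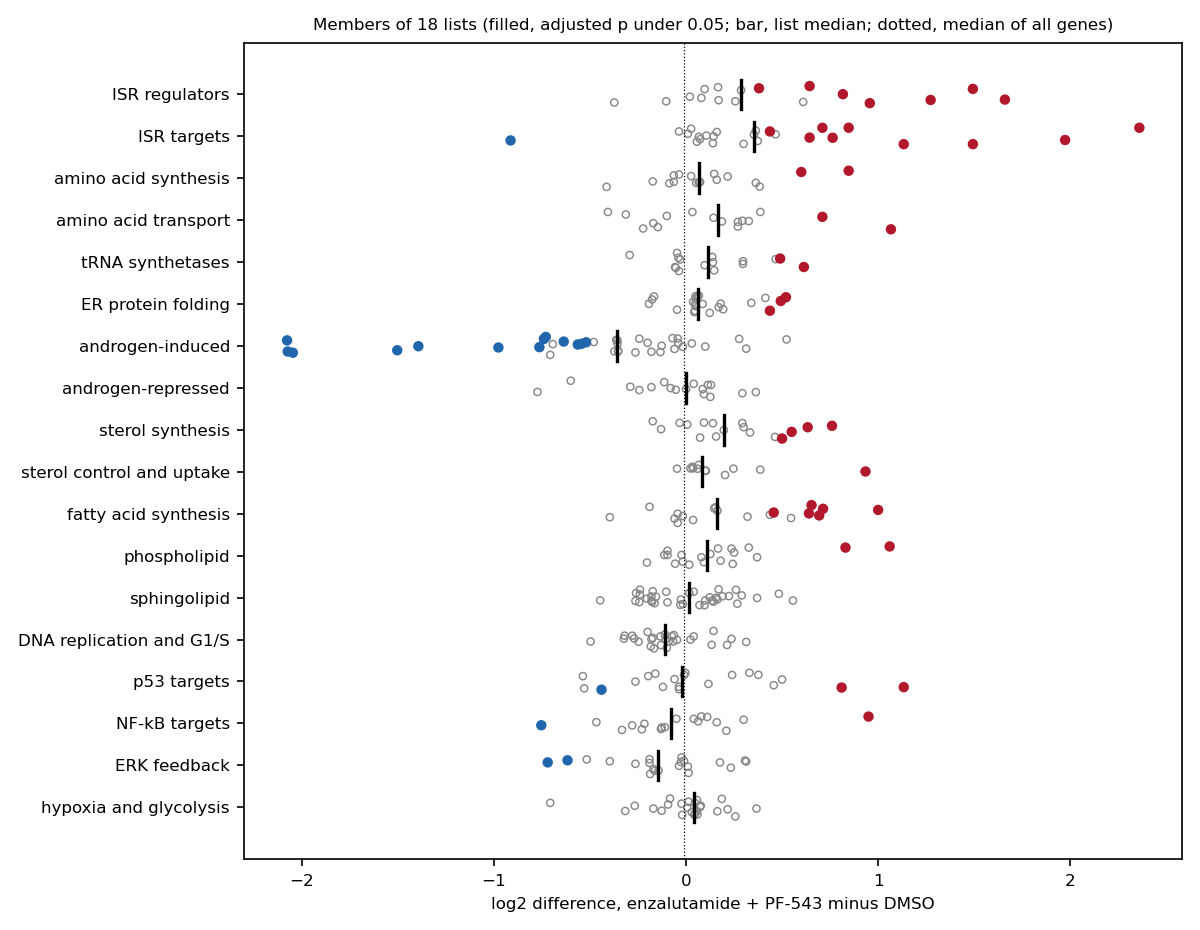
Log2 difference of the combination minus DMSO for the members of 18 gene lists, 1 point per gene. Filled points passed an adjusted p of 0.05 (red higher, blue lower), the black bar is the list median and the dotted line the median of all genes at -0.01: the ISR targets reach 2.36, the ISR regulators 1.66 and the androgen-induced list -2.08.

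The remaining rises were scattered over several groups. The list counts here stand beside 1.12% of all genes that rose and 0.905% that fell. CCNG2, a cyclin that restrains proliferation and a FOXO target, was at 10.33, 10.39 and 10.37 with the combination, against 9.13, 8.92 and 9.10 in DMSO (1.31 ± 0.11, adjusted p = 4.44e-05). TSC22D3 (GILZ), an anti-inflammatory leucine zipper protein induced by glucocorticoids and FOXO, was at 11.58, 11.88 and 11.86, against 10.77, 10.49 and 10.55 (1.17 ± 0.12, adjusted p = 4.51e-04). Both single agents were intermediate for each of the 2 genes. In the FOXO list 3 of 19 genes rose (CCNG2, TSC22D3 and SESN3) and TXNIP fell, with a median of 0.06. Of 12 glucocorticoid targets TSC22D3 rose while ZBTB16, the NF-kB inhibitor NFKBIA (-0.75, adjusted p = 0.00696) and the receptor kinase inhibitor ERRFI1 (-0.72, adjusted p = 0.00326) fell, with a median of -0.11. The median DMSO-free sum of this list was 0.018, and the sum for ERRFI1 was -0.40. Of 20 p53 targets SESN2 and the cell cycle inhibitor CDKN1A (0.81, adjusted p = 0.0135) rose and the polymerase POLH fell by 0.44, a call kept in 1 of 6 fits with an array left out and a DMSO-free sum of -0.16, with a list median of -0.02. CDKN1A was at 9.37, 9.30 and 9.38, against 8.82, 8.24 and 8.56, close to its levels of 9.22, 9.30 and 9.41 with PF-543 alone.

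The chemokine scavenger ACKR3 was at 7.41, 7.0 and 6.60 with the combination, against 5.61, 5.97 and 5.92 in DMSO (1.17 ± 0.24, adjusted p = 0.028), and kept the threshold in 1 of 6 fits with an array left out. MRGPRD, a receptor of sensory neurons (1.10), TCN1, a carrier of cobalamin (1.03), and PMCH, a neuropeptide precursor (0.99), also rose. They were expressed below the median of all genes, and PMCH below the first quartile (4.49 against 4.65). MRGPRD, TCN1 and PMCH kept the threshold in 2, 4 and 5 of the 6 fits with an array left out. Their DMSO-free sums were 0.16, 1.59 and 1.34. For the list counts that follow, the shares over all genes were again 1.12% higher and 0.905% lower. Among the immediate early genes JUND rose by 0.91 (1 of 26, median 0.04). It did not pass without DMSO array 2 or combination array 1 (highest adjusted p = 0.0694). ERRFI1 and the phosphatase DUSP4 (-0.62) were the 2 of 21 ERK feedback genes that fell, with a median of -0.14. DUSP4 kept the threshold in 1 of 6 fits with an array left out. In the NF-kB list the kinase MAP3K8 rose by 0.95 (adjusted p = 0.00999) and NFKBIA fell, the other 16 of 18 genes not passing. MAP3K8 had a DMSO-free sum of 0.11 (adjusted p = 0.958) and NFKBIA one of -0.97. Of 11 protein kinase C isoforms and relatives PRKCH (0.67) and PRKD1 (0.47) rose. Neither passed without DMSO array 2 or combination array 2 or 3. PRKCH kept the threshold in 1 and PRKD1 in 3 of the 6 fits with an array left out. Their DMSO-free sums were 0.0067 and 0.20. MYC rose by 0.36, against 0.58 with enzalutamide alone and a DMSO-free sum of -0.10, as 1 of 20 genes of its list, and it did not pass with any of the 6 arrays left out. The same held for HSD17B10, a mitochondrial dehydrogenase (-0.42, 1 of 15 steroid enzymes), while CENPE, a mitotic motor (-0.56, 1 of 21 mitosis genes), passed in 2 of those fits and had a DMSO-free sum of -0.22. SLC7A11 was the 1 of 23 NRF2 targets that rose.

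Over all 17687 genes, 3314 had an unadjusted p under 0.05 in limma, the share to set beside the counts below. In 11 of the 36 lists no member passed in limma. These include 28 genes of DNA replication and the G1 to S transition (median -0.11, 11 at an unadjusted p under 0.05), 30 lysosome and autophagy genes (0.05, 9), 21 apoptosis regulators of the BCL2 family and its partners (0.06, 7) and 25 hypoxia and glycolysis genes (0.04, 5). They also include 11 metallothioneins and zinc transporters (0.23, 5), 19 interferon-induced genes (0.10, 3), 17 heat shock genes (0.05, 2) and 15 ribosomal proteins (0.02, 1).

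Set against its parts, the combination had few genes past either single agent. Against enzalutamide alone 5 genes were higher and 0 lower (0.0283% of genes, with 1385 at an unadjusted p under 0.05 in limma): DDIT4, INSIG1, MSMO1, ATF3 and IDI1. Against PF-543 alone 14 were higher and 41 lower (0.311%), with SNAI2 at -2.45, C1orf116, ZBTB16, RHOU and KLF5 (-1.85) as the largest falls and DDIT3 (1.64), CHAC1 and DDIT4 as the largest rises. In the DMSO-free sum 8 genes passed (0.0452%). DDIT3 (2.47), DDIT4 (2.44) and CHAC1 (2.07) were higher in it, and RHOU (-2.24), ZBTB16 (-1.92), PMEPA1 (-1.79), C1orf116 (-1.77) and SLC45A3 (-1.67) lower. Its SE is larger, at 1.47 times the gene's residual spread against 0.816 times for the difference from DMSO. Over the 198 risen genes the median difference from DMSO was 0.59 for the combination, 0.35 for enzalutamide and 0.40 for PF-543, and the DMSO-free sum had a median of 0.37. Over the 160 fallen genes these medians were -0.63, -0.45, -0.30 and -0.51. The first 3 medians share the DMSO arrays and the genes were chosen on the first.

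**Figure D4:**
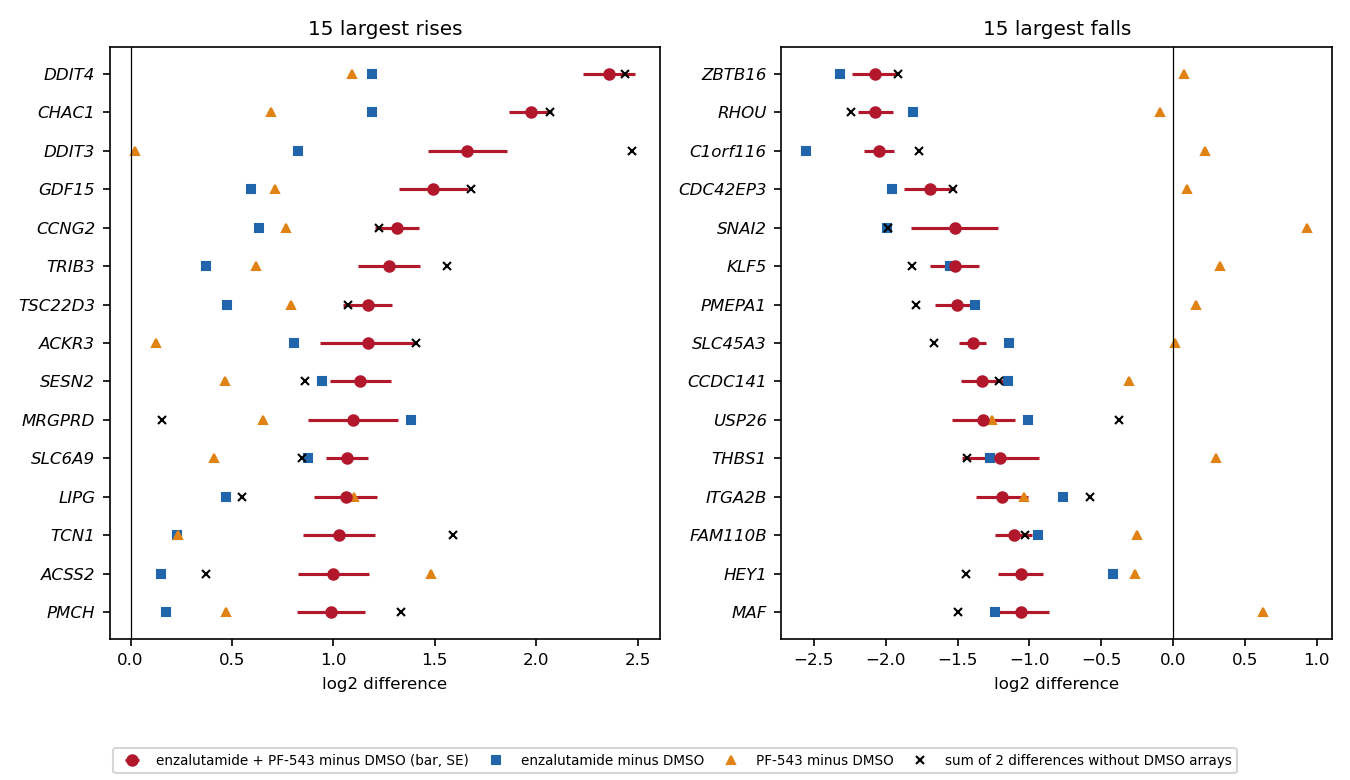
Log2 differences of the 15 largest rises (left) and 15 largest falls (right) in the combination minus DMSO (red, bar 1 SE), with enzalutamide minus DMSO (blue squares), PF-543 minus DMSO (orange triangles) and the sum of the combination's differences from each single agent, which holds no DMSO array (crosses). The red points rank the genes, and the comparisons with DMSO share its 3 arrays; for ZBTB16, RHOU and C1orf116 the triangle lies near 0, and for DDIT4 and CHAC1 both single agents lie short of the red point.

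Whether the combination departed from the sum of the single-agent effects was tested for every gene as the combination minus enzalutamide minus PF-543 plus DMSO. This departure equals the DMSO-free sum minus the difference from DMSO, so the DMSO arrays enter it. A shift of those arrays cannot be told apart here from a departure from additivity, and its part was not tested. None of the 17687 genes passed in limma (0% called), 1428 had an unadjusted p under 0.05, and the smallest adjusted p was 0.215. A robust and trended prior called 12. For DDIT4 the departure was 0.08 (95% interval -0.34 to 0.49) and for CHAC1 0.10 (-0.25 to 0.44), so their combined rises lay within these bounds of the sum of the single-agent rises. For DDIT3 it was 0.81 (0.18 to 1.44), for HMGCS1 -0.78 (-1.19 to -0.37), for PCYT2 -0.74 (-1.14 to -0.34) and for MAP3K8 -0.84 (-1.35 to -0.33), where the intervals are for a single gene and none passed after adjustment. For the androgen-induced ZBTB16, RHOU and C1orf116 it was 0.16 (-0.35 to 0.67), -0.17 (-0.56 to 0.22) and 0.28 (-0.07 to 0.62). The 3 genes with the smallest p were GDNF-AS1 (1.14 ± 0.17, adjusted p = 0.215), GPR151 (1.24 ± 0.22) and HPCAL1 (-1.04 ± 0.19), the last 2 at an adjusted p of 0.392. GDNF-AS1 averaged 3.92 ± 0.12 with the combination (SD, n = 3), 3.53 and 3.18 with enzalutamide, 3.30, 3.30 and 3.35 with PF-543, and 3.76, 3.86 and 4.04 in DMSO. Its combination and DMSO arrays overlapped, and both single agents lay below them at a level in the lowest quartile of genes.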

How the data were processed

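RNA of C42B cells was hybridised to whole-transcript Affymetrix arrays, 15 in all. The authors deposited log2 expression values, 1 for each probe set, made with RMA in Transcriptome Analysis Console 4.02, per the submitters' processing notes. RMA corrects background, normalizes between arrays and summarises probes, so a change common to most genes would be lost. Annotation version and build: not given in the sources used here. Scanner files were not used, and probe sets carry no detection call.

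Of 21448 probe sets, 17709 carried 1 gene symbol and matched a RefSeq gene, 0 carried several, and 3739 had no name in the table used. Where a gene had more than 1 probe set (20 genes), the one of highest mean was kept, leaving 17687. Groups came from the labels. No 2 arrays were identical (0 pairs). All 15 arrays entered a fit of group means with limma 3.58.1 in R 4.3.3 (9 residual and 3.82 prior degrees of freedom), and contrasts were adjusted by Benjamini-Hochberg over all genes at 0.05. Errors are standard errors, with 95% intervals where given. Plots used matplotlib 3.10.9 in Python 3.11.15.

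The comparison, the 36 gene lists (795 members, 693 measured) and the alternatives were chosen with earlier results of these data known, so agreement of a list with its name is no independent evidence. The rule for named genes took the 15 largest rises and 15 largest falls among called genes whose arrays do not overlap, up to 4 passing members of each list with the largest change, SPHK1, and the 3 smallest p for additivity. MAF and TNFRSF10D tied for the last fall. Other passing list members, genes past the comparisons with single agents, the plotted genes and the printed promoters were chosen after their values were seen, as were the list counts under the alternatives. Promoters are from RefSeq (GRCh38.p14). Alternatives were other normalizations, a filter on dim genes, all probe sets, another prior, array weights, a replicate block, a 2-fold minimum, fewer arrays in the fit, each array left out, and comparisons without DMSO arrays. Some genes are not analysed here.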

Additional observations from a re-analysis of the deposited data

How the results depend on the processing

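The count of 358 genes (198 higher, 160 lower) stayed within 1.5 times under quantile normalization (329), cyclic loess (330), median centring (377), all probe sets (374) and array weights (390), and under the 3 scalings the median difference of all genes was 0.0019, 0.0015 and -0.01. Without the dimmest 25% of genes it was 545 (321 higher), and with a robust and trended prior 1121 (675 higher, 446 lower), with 12 departures from additivity. A 2-fold minimum left 34 (14 higher, 20 lower), the fit on the 6 arrays 31 (16 higher, 15 lower) and the sum of differences without DMSO arrays 8 (3 higher, 5 lower). With an array left out the counts were 115 to 260, with 60 to 138 higher and 55 to 122 lower, and the departures from additivity stayed at 0. Deviations of same-numbered combination and DMSO arrays from their group means had correlations of -0.0178, -0.0086 and -0.0059 over all genes. What the replicate number stands for is not given in the labels, and a batch acting on part of the genes was not tested. With the replicate number as a block 236 genes were called (131 higher, 105 lower) and 0 departures. The causes of these changes were not tested.

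Of 70 named genes, 66 were called in the main fit. The threshold was lost by 41 of them in the fit on the 6 arrays and by 7 with the replicate block. The following named genes changed sign. With an array left out GDNF-AS1 ran from -0.027 to 0.11 and HPCAL1 from -0.19 to 0.015, both turned without DMSO array 1 and GDNF-AS1 also without combination array 2 (-0.012). Against enzalutamide alone the differences were MRGPRD -0.29, ZBTB16 0.24, C1orf116 0.51, CDC42EP3 0.26, KLF5 0.03, SNAI2 0.47, THBS1 0.068, MAF 0.19, HOXB13 -0.25, NARS1 -0.0017, MYC -0.22, ERRFI1 0.21, DUSP4 0.07, MAP3K8 -0.33, PRKD1 -0.26, TMPRSS2 0.32 and GPR151 0.75. Against PF-543 alone they were LIPG -0.043, ACSS2 -0.48, MSMO1 -0.35, HMGCS1 -0.83, IDI1 -0.50, DHCR7 -0.077, INSIG1 -0.48, ELOVL6 -0.21, ACSL1 -0.27, PCYT2 -0.16, EDEM1 -0.22, PRKCH -0.38, SPHK1 0.33 and GPR151 0.10. In the sum of both they were HMGCS1 -0.15, EDEM1 -0.053, MYC -0.10, SPHK1 0.093 and GPR151 0.85.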
